A study of Rattus norvegicus with 36 samples.

Results

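The genes described are 7 that handle osmotic load: the taurine transporter Slc6a6, the myo-inositol transporter Slc5a3, the betaine and GABA transporter Slc6a12, the neutral amino acid transporter Slc38a2, aldose reductase Akr1b1, the transcription factor Nfat5 and the chaperone Hspa4l. They were chosen by symbol, after their response to salt in these samples was known. Of the 7, 6 have a row in the table of 26106 genes, and Slc5a3 is not analysed here. A mean normalised read value of at least 0.5 over all libraries was required for testing. Of the 6 genes with a row, 5 passed it, and Slc6a12, with a mean of 0.328, did not.

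The samples are pieces of thoracic descending aorta, profiled by total RNA sequencing, from male rats of 3 strains on 2 diets. S2Ba and S2Bb are congenic strains on the SS background: S2Ba carries the distal portion of Brown Norway (BN) chromosome 2 and S2Bb a middle segment of it, and SS, the salt-sensitive parent, carries neither. The rats were 4 to 6 weeks old at the start, were given a high salt diet (4% NaCl) or a normal salt diet, and were kept on it up to 12 to 13 weeks of age. Values of 34 libraries were analysed: 5 of S2Ba on high salt and 6 on normal salt, 6 of S2Bb on each diet, and 5 of SS on high salt and 6 on normal salt. Not analysed here were replicate 2 of S2Ba and replicate 3 of SS, both on high salt. Whether every sample came from a different animal is not stated in the labels, and the p-values then measure only the spread between the samples, which may be technical. Except for S2Bb high salt replicates 2 and 3, the numbers in the sample titles are higher on high salt than on normal salt within each strain. The labels do not say what these numbers stand for, and whatever they mark cannot be told apart from diet.

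Cells that lose water to a salty surrounding gather small organic molecules, the compatible osmolytes, which hold water without disturbing proteins. Taurine, betaine, myo-inositol and neutral amino acids are taken up by the transporters named above, and sorbitol is made from glucose by aldose reductase. The transcription factor NFAT5, also called TonEBP, binds the tonicity-responsive enhancer (TonE) near such genes in mammalian cells and switches them on when tonicity rises. In blood vessels taurine uptake and NFAT5 have been studied in smooth muscle, the main cell type of the aortic wall.

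The promoter of Slc6a6 is shown because Slc6a6 gave the largest salt difference among these genes and holds a match to the element NFAT5 binds. RefSeq promoter windows (rat assembly GRCr8, 250 bases before to 50 after the start of the gene) were found for 5 of the 7 genes, namely Slc6a6, Slc5a3, Slc6a12, Slc38a2 and Hspa4l. Both strands were searched for TonE and for its core, TGGAAA, which is part of every TonE match. The Slc6a6 window lies at chr4:125752252-125752551 on the plus strand, and the TonE match, printed in capitals below as it reads on the strand of the gene, lies on the opposite strand 161 to 151 bases upstream of the start.

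Slc6a6: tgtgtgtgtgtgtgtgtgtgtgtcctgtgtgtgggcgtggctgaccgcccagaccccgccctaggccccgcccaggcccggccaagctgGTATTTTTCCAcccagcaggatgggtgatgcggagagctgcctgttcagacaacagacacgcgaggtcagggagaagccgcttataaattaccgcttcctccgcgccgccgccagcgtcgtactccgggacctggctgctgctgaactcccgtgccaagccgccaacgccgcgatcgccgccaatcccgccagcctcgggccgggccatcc

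Read on the opposite strand the match is TGGAAAAATAC. The windows of Slc5a3, Slc6a12, Slc38a2 and Hspa4l hold neither TonE nor the core. Over all 27457 windows of this length, 5.96% hold TonE and 22.4% hold the core. A match of letters does not show that NFAT5 binds there.

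Libraries held 8753735 to 15168833 recovered reads. The normalised read value is a library's reads of a gene over its size factor, and it is not scaled by gene length, so levels are compared between libraries and not between genes. Smooth muscle markers (6 of 6 measured) had summed values of 18660 to 25940 in the 34 libraries, and markers of endothelium (7 of 8 measured) of 237.6 to 569.8. In bulk tissue, fewer cells of a type and less RNA per cell cannot be told apart. Cell cycle markers (8 of 8 measured, none at 0 in a whole group) summed to 51.65 to 240.9 in S2Ba on high salt and 30.64 to 71.66 on normal salt, to 54.28 to 147.5 and 18.74 to 43.29 in S2Bb, and to 58.74 to 94.3 and 18.76 to 43.71 in SS. Fibroblast markers (6 of 6 measured, none at 0) summed to 2790 to 5536 on high salt and 5616 to 12280 on normal salt in S2Ba, to 4118 to 7175 and 6483 to 10460 in S2Bb, and to 5393 to 8692 and 7662 to 10880 in SS. A sum follows its most abundant genes. The median log2 salt difference of these 6 genes was -0.427 in S2Ba, -0.043 in S2Bb and -0.265 in SS. Over all tested genes it was -0.011, -0.002 and -0.018. Mesothelium markers (4 of 4 measured, none at 0) summed to 5.497 to 12.75 on high salt and 12.3 to 25.51 on normal salt in S2Ba, to 4.243 to 9.499 and 12.32 to 24.88 in S2Bb, and to 10.55 to 13.13 and 10.3 to 15.83 in SS. Macrophage sums (7 of 8 measured, none at 0) had medians of 520.3 on high salt and 394.6 on normal salt in S2Ba, 488 and 418.3 in S2Bb, and 368.1 and 408.3 in SS, with overlapping ranges, from 314.2 to 946.8 on high salt and 330.4 to 498.7 on normal salt over the strains. Adipocyte sums (8 of 8 measured; Elovl3 at 0 in every group but SS on normal salt) had medians of 167.2 on high salt and 219 on normal salt in S2Ba, 176.1 and 291.6 in S2Bb, and 161.5 and 447.9 in SS, with ranges from 103.2 to 429.7 on high salt and 74.35 to 1512 on normal salt. Striated muscle markers (6 of 7 measured) summed to 21.82 to 44.62 on high salt and 24.81 to 95.23 on normal salt in S2Ba. Their sums were 26.47 to 45.17 and 48.21 to 93.32 in S2Bb, and 31.28 to 83.94 and 31.22 to 73.93 in SS. Schwann and neuronal markers (5 of 5 measured) summed to 8.905 to 21.02 on high salt and 11.38 to 85.29 on normal salt in S2Ba. Their sums were 6.738 to 21.19 and 12.05 to 26.57 in S2Bb, and 11.42 to 17.73 and 11.46 to 57.88 in SS. The part of these shifts in the salt differences below was not tested.

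Slc6a6, which carries taurine into the cell together with sodium and chloride, was higher on high salt in every strain. In S2Ba its values on high salt were 120.1, 141.5, 149.7, 92.39 and 85.41, against 24.45, 42.58 and 55.13 (lowest, median and highest) on normal salt. In S2Bb the lowest, median and highest were 81.12, 95.44 and 114.5 on high salt, against 26.31, 32.54 and 36.11 on normal salt. In SS the high salt values were 97.88, 121.3, 129.6, 108.6 and 92.24, against 34.91, 49.7 and 59.97 on normal salt. The diets did not overlap in any strain, which held for 5.31% of all tested genes in S2Ba, 10.4% in S2Bb and 5.99% in SS. All 16 high salt libraries, the lowest at 81.12, lay above all 18 normal salt libraries, the highest at 59.97. The share of all tested genes that separate the diets over the strains together was not computed, so how common this is remains unknown.

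Expressed as means, Slc6a6 stood at 117.8 ± 28.6 on high salt (SD, n = 5) and 42.59 ± 10.7 on normal salt (n = 6) in S2Ba. The means were 95.12 ± 12.9 and 31.42 ± 3.85 in S2Bb (n = 6 each), and 109.9 ± 15.6 (n = 5) and 48.69 ± 8.4 (n = 6) in SS. The salt difference on the log2(value + 0.5) scale was 1.47 ± 0.16 (SE, 2.76-fold) in S2Ba, 1.58 ± 0.15 (2.99-fold) in S2Bb and 1.17 ± 0.16 (2.26-fold) in SS. Ordered by p in the limma fit over 13475 genes, Slc6a6 was number 2 in S2Ba, 3 in S2Bb and 4 in SS. Because the gene was chosen for this response, these salt values are a description and carry no test.

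**Figure D1:**
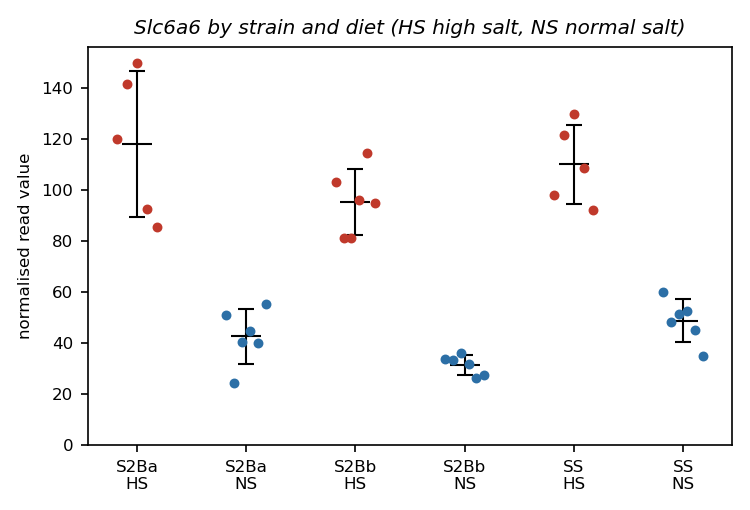
Slc6a6 in each library (normalised read value, linear axis from 0) by strain and diet, with the mean and SD of each group. Each point is 1 library. The 16 high salt libraries lie between 81.12 and 149.7 and the 18 normal salt libraries between 24.45 and 59.97.

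From high to low, the group means of Slc6a6 ran S2Ba, SS and S2Bb on high salt, then SS, S2Ba and S2Bb on normal salt. The genes were chosen for their response to salt. Strain differences were tested with limma over all 13475 genes, with Benjamini-Hochberg adjustment. These strain tests, here and below, use libraries of the salt contrasts behind the choice, so they are not independent of it. On normal salt Slc6a6 was lower in S2Bb than in SS, with a log2 difference of -0.61 (95% interval -0.93 to -0.30, adjusted p = 0.0332). Of the 6 S2Bb libraries on normal salt 5 lay below all 6 SS libraries, and the remaining library, at 36.11, lay above the lowest SS library at 34.91. In that comparison 1.44% of all tested genes were called, 0.965% as lower in S2Bb, and Slc6a6 was the only call among the 5 tested genes. The call is close to the threshold: without a filter on low values the adjusted p was 0.0584, with 2 clock gene components as covariates it was 0.141, and leaving out 1 library at a time ended the call in 6 of 34 fits (SS normal salt replicates 1, 2 and 4, and S2Bb normal salt replicates 4, 5 and 6, with adjusted p up to 0.0999).

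On normal salt the difference in Slc6a6 between S2Ba and SS was -0.22 (-0.53 to 0.10, adjusted p = 0.533 in limma). On high salt it was 0.08 (-0.27 to 0.42, adjusted p = 0.859) for S2Ba against SS and -0.21 (-0.53 to 0.12, adjusted p = 0.78) for S2Bb against SS. None of these differences passed the test, so of neighbours in the order of the means neither S2Ba and SS nor SS and S2Bb were told apart on high salt, nor SS and S2Ba on normal salt. S2Bb was not tested against S2Ba. The salt response of Slc6a6 was also set against that of SS, as an interaction. It was larger by 0.29 on the log2 scale in S2Ba (-0.17 to 0.76, adjusted p = 0.716 in limma) and by 0.41 in S2Bb (-0.05 to 0.86, adjusted p = 0.457), and neither passed the test. The intervals leave room for a response up to 0.86 larger on the log2 scale in S2Bb than in SS.

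Clock genes also differed between libraries. The first component of 17 clock genes, which took 74.1% of their variance, ran from -3.91 to 8.48 in high salt libraries and from -3.38 to 0.09 in normal salt libraries. In the 6 high salt libraries inside the normal salt range of this first component Slc6a6 stood at 81.12 to 120.1, against 24.45 to 59.97 in the 18 normal salt libraries. That range pools the strains: within the normal salt range of its own strain lay 1 high salt library in S2Ba (Slc6a6 92.39), 0 in S2Bb and 1 in SS (97.88). These libraries were not matched on the second component. In S2Bb the second component ran from 0.05 to 3.01 on high salt and from -2.54 to -0.62 on normal salt, without overlap. With 2 clock components as covariates the Slc6a6 salt difference was 1.39 in S2Ba, 1.41 in S2Bb and 0.94 in SS. In S2Bb no high salt library lay in the normal salt range of either component, so the 1.41 rests on the fit and not on matched libraries. Within groups, Slc6a6 and the first component had a Pearson r of 0.35 and a Spearman rho of 0.36 over 34 libraries (r = 0.39 without the 2 libraries farthest from the median). This correlation of deviations from group means did not pass adjustment over the 20 relations computed (permutation within groups, adjusted p = 0.063 for r and 0.19 for rho, 2-sided).

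**Figure D2:**
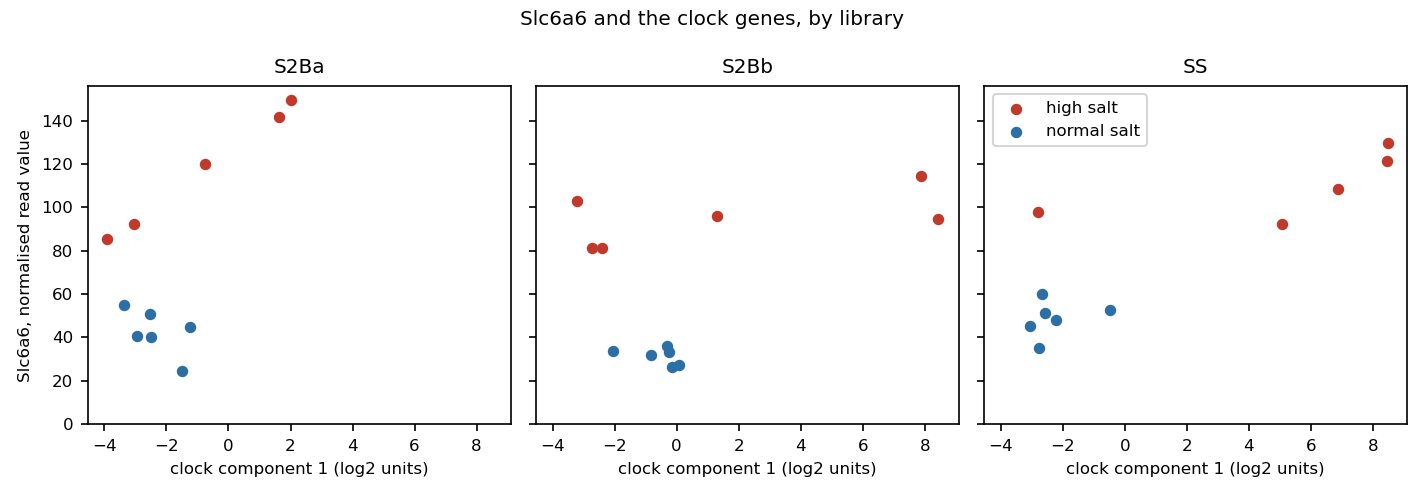
Slc6a6 (normalised read value) against the first component of 17 clock genes (log2 units) in each strain, 1 point per library, high salt and normal salt in separate colours. Over the strains together, high salt libraries at component values from -3.38 to 0.09 hold 81.12 to 120.1 and normal salt libraries 24.45 to 59.97, but in S2Bb 0 of 6 high salt libraries lie in the normal salt range of that strain, -2.06 to 0.09.

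Aldose reductase Akr1b1, which makes the osmolyte sorbitol, showed a smaller difference. In S2Ba it stood at 145.3, 162.6, 150.2, 171.9 and 156.1 on high salt, against 122.3, 142.9 and 165.8 (lowest, median and highest) on normal salt. In S2Bb the lowest, median and highest were 138.6, 160.8 and 180.5 on high salt, against 91.59, 135.4 and 159.2 on normal salt. In SS the values were 146, 154, 154.4, 157.9 and 150.2 on high salt, against 96.72, 106.9 and 156.7 on normal salt. The diets overlapped in all 3 strains. In SS the overlap came from 1 normal salt library, replicate 3 at 156.7, and the other 5 lay below every high salt library.

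The Akr1b1 salt difference was 0.12 ± 0.11 (SE, log2) in S2Ba, 0.30 ± 0.10 in S2Bb and 0.45 ± 0.11 in SS, given without a test. Without SS normal salt replicate 3 the SS difference was 0.55. The S2Bb difference was 0.18 with clock components as covariates, 0.15 with the heat shock level as a covariate, and 0.20 without S2Bb normal salt replicate 2, the library with the lowest Akr1b1 value. On normal salt Akr1b1 averaged 144.9 ± 15.7 in S2Ba and 112.9 ± 22.3 in SS (SD, n = 6 each), a log2 difference of 0.37 (95% interval 0.16 to 0.58) that did not pass (adjusted p = 0.104 in limma). That verdict turns on single libraries and on the tool: the adjusted p was 0.00753 without SS normal salt replicate 3, 0.042 without S2Ba normal salt replicate 4, 0.046 without S2Bb normal salt replicate 2, and 0.0424 in DESeq2. In S2Bb against SS on normal salt the Akr1b1 difference was 0.23 (0.02 to 0.44, adjusted p = 0.317), and the interactions were -0.33 (-0.64 to -0.02, adjusted p = 0.501) for S2Ba and -0.15 (-0.46 to 0.15, adjusted p = 0.724) for S2Bb. On high salt both congenic strains were within 0.08 of SS on the log2 scale.

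Slc38a2, the SNAT2 transporter that brings in neutral amino acids and is induced by hypertonicity in cultured cells, differed most in S2Ba. Its values there were 426.1, 496.3, 581, 396.8 and 503.4 on high salt, against 272.4, 357 and 434 on normal salt. In S2Bb the lowest, median and highest were 372.4, 407.4 and 677.5 on high salt, against 342.4, 414.9 and 470.8 on normal salt. In SS the values were 359.6, 433.1, 436.2, 396 and 369.7 on high salt, against 312, 364.1 and 427.9 on normal salt. In S2Ba 3 of 5 high salt libraries lay above all normal salt libraries. In S2Bb only 1 of 6 did, replicate 1 at 677.5.

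The Slc38a2 salt difference was 0.44 ± 0.13 (SE, log2) in S2Ba, 0.10 ± 0.12 in S2Bb and 0.13 ± 0.13 in SS, again without a test. Without S2Bb high salt replicate 1 the S2Bb difference was -0.03, so its direction rests on that library. The interaction of S2Ba with SS was 0.31 (-0.06 to 0.68, adjusted p = 0.586 in limma) and that of S2Bb -0.03 (-0.39 to 0.33, adjusted p = 0.961), so a strain difference in the salt response was not detected. Between strains on the same diet no Slc38a2 difference passed, with the largest, 0.26 for S2Ba against SS on high salt (-0.01 to 0.53), at an adjusted p of 0.313.

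Nfat5, the tonicity-responsive factor itself, is activated mostly by nuclear entry and protein level, which RNA does not show. Its values were 192.9, 242.4, 288.4, 262.1 and 263.6 on high salt in S2Ba, against 205.2, 252.4 and 319.1 on normal salt. In S2Bb they were 247.5, 259.1 and 318.9 on high salt, against 191.2, 223.2 and 305.7 on normal salt. In SS they were 253.2, 247.1, 255.8, 218.9 and 219.8 on high salt, against 193.9, 294.8 and 400.6 on normal salt.

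The diets overlapped in every strain, and the SS normal salt libraries fell apart into replicates 4, 5 and 6 at 362.4 to 400.6 and replicates 1, 2 and 3 at 193.9 to 227.3. Replicates 4, 5 and 6 also have the higher numbers in their sample titles. Whatever these numbers mark cannot be told apart from this split. The same replicates 4, 5 and 6 had higher sums of heat shock genes, 4740 to 6211, against 2703 to 2959 in replicates 1, 2 and 3, and higher Hspb1, 595.2 to 660.1, against 150.4 to 208.5. The part of this in the Nfat5 values was not tested in SS alone, and with the heat shock level as a covariate over all groups the SS salt difference of Nfat5 was -0.13. The Nfat5 salt difference was -0.04 ± 0.16 (SE, log2) in S2Ba, 0.26 ± 0.15 in S2Bb and -0.25 ± 0.16 in SS. The interaction of S2Bb with SS was 0.50 (0.05 to 0.96) and did not pass adjustment (adjusted p = 0.332 in limma), nor did that of S2Ba at 0.21 (-0.26 to 0.67, adjusted p = 0.821). On normal salt Nfat5 differed by -0.32 between S2Bb and SS (-0.63 to -0.01, adjusted p = 0.359).

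Hspa4l, a relative of the HSP110 chaperones also known as osmotic stress protein 94, had low values. In S2Ba they were 6.573, 5.343, 4.581, 4.716 and 10.95 on high salt, against 3.849, 4.593 and 8.175 on normal salt. In S2Bb the lowest, median and highest were 4.368, 7.559 and 9.674 on high salt, against 3.754, 7.89 and 16.94 on normal salt. In SS they were 7.008, 5.694, 5.552, 5.201 and 8.269 on high salt, against 6.605, 7.916 and 11.64 on normal salt. The diets overlapped in every strain. The Hspa4l salt differences were 0.24 ± 0.27 (SE, log2) in S2Ba, -0.03 ± 0.26 in S2Bb and -0.42 ± 0.27 in SS, given without a test. Their 95% intervals included 0, which is a description and shows neither a difference nor its absence.

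Hspa4l is the only one of the 7 that RefSeq (GRCr8) places on chromosome 2, the chromosome exchanged in the congenic strains. The sources used here do not give the ends of the BN segments, so its position relative to them is not known. On normal salt it averaged 5.3 ± 1.72 in S2Ba and 8.775 ± 2.22 in SS (SD, n = 6 each), a log2 difference of -0.69 (95% interval -1.21 to -0.17) with an adjusted p of 0.208 in limma. In that comparison 5 of 6 S2Ba libraries lay below all SS libraries. In S2Bb against SS on normal salt the Hspa4l difference was -0.22 (-0.75 to 0.30, adjusted p = 0.763).

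Slc6a12, the betaine and GABA transporter, was at the limit of detection. Counts over a whole group were 27 reads in S2Ba on high salt and 27 on normal salt, 24 and 22 in S2Bb, and 15 and 18 in SS. Group means ran from 0.241 to 0.455, every library held at least 1 read, and no salt or strain difference can be read at this depth.

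**Figure D3:**
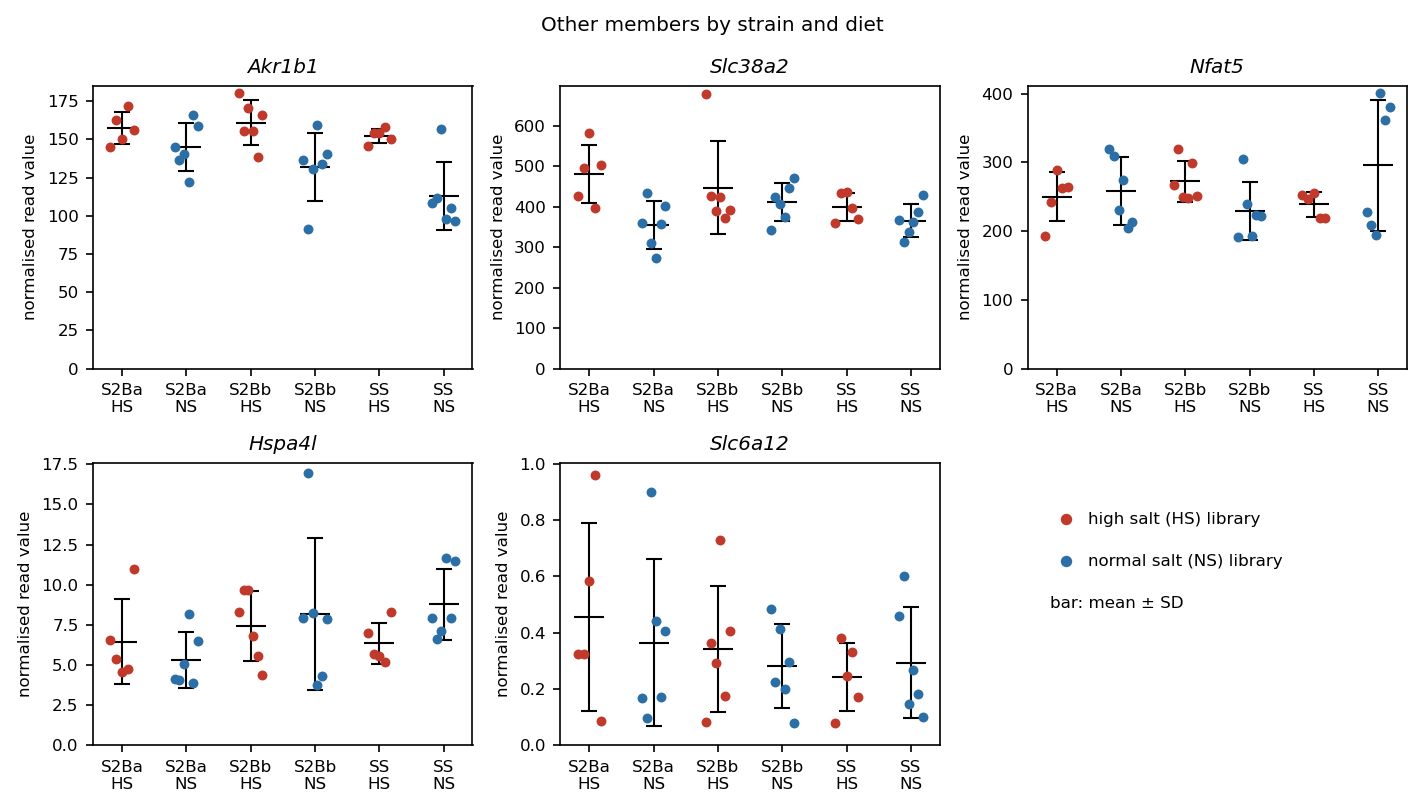
The remaining genes in each library (normalised read value, linear axes from 0, a scale per gene) by strain and diet, with the mean and SD of each group and 1 point per library. High and normal salt libraries overlap in every panel. Single high libraries stand out for Akr1b1 (156.7, SS on normal salt), Slc38a2 (677.5, S2Bb on high salt) and Hspa4l (16.94, S2Bb on normal salt).

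Counted over the 5 tested genes, the salt comparison called 2 in S2Ba (Slc6a6 and Slc38a2), 2 in S2Bb (Slc6a6 and Akr1b1) and 2 in SS (Slc6a6 and Akr1b1), all higher on high salt. Of all tested genes 15.2%, 22.1% and 8.38% were called in S2Ba, S2Bb and SS, and 8.12%, 10.7% and 4.44% were called as higher. Nothing is read from these counts, since this contrast chose the genes. The S2Bb call of Akr1b1 was lost without a filter on low values, with only the S2Bb groups in the fit, with either covariate, and without S2Bb high salt replicate 1, 3 or 6 or normal salt replicate 2. The S2Ba call of Slc38a2 was lost with only the S2Ba groups in the fit and without S2Ba high salt replicate 4. Between strains, 0 of 5 were called in S2Ba against SS on normal salt (0.267% of all genes called; 2 of the 5 had an unadjusted p under 0.05 and DESeq2 called 1), on high salt 0 of 5 in S2Ba (1.73%) and 0 of 5 in S2Bb (0.267%), with 0 of the 5 under an unadjusted p of 0.05 in both and 0 calls in DESeq2 or edgeR. For the difference in salt response, 0 of 5 were called for S2Ba (0% of all genes) and 0 of 5 for S2Bb (0.171%), with 1 gene each under an unadjusted p of 0.05 in limma and 0 calls in DESeq2 or edgeR. The S2Bb share stands for 23 genes, against 124 in DESeq2, 67 with the heat shock covariate, 102 without SS normal salt replicate 3, 1 without a filter and 0 with clock components.

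**Figure D4:**
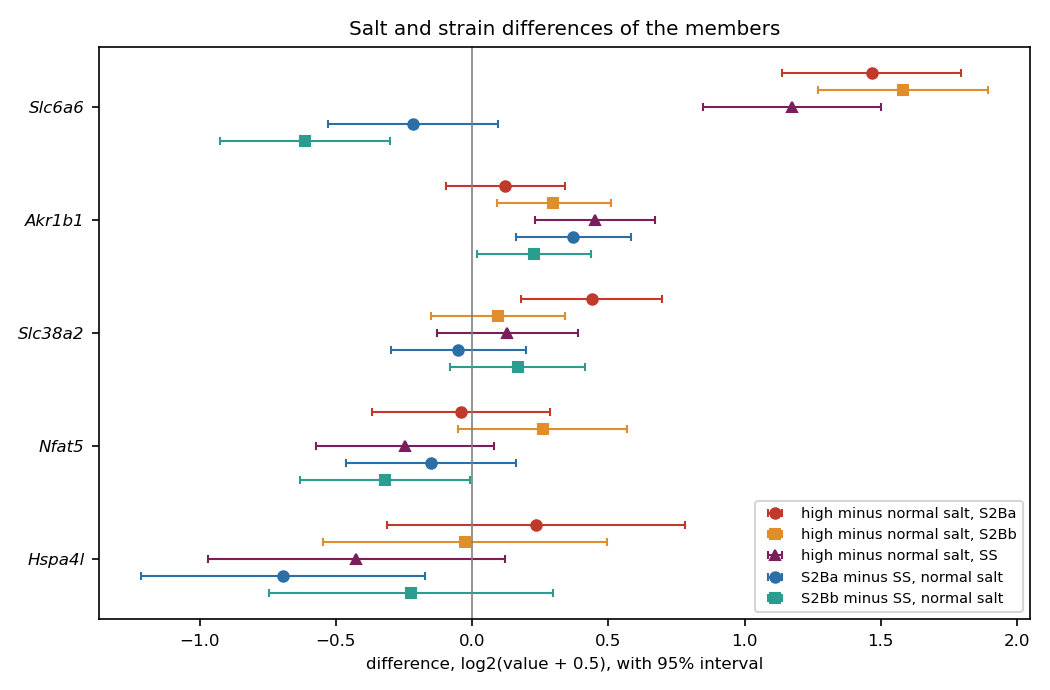
Differences on the log2(value + 0.5) scale with 95% intervals from limma for the 5 genes tested: high minus normal salt in each strain, and each congenic strain minus SS on normal salt. Only Slc6a6 has salt differences above 1 (1.47, 1.58 and 1.17 in S2Ba, S2Bb and SS), and its S2Bb minus SS difference is -0.61.

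Within groups Slc6a6 showed no clear relation to the other 4 tested genes. Deviations from the group means, taken over 34 libraries, gave Slc6a6 a Pearson r of 0.04 with Akr1b1, -0.04 with Slc38a2, -0.11 with Hspa4l and -0.19 with Nfat5. Among all 9453 genes ranked for likeness to Slc6a6 on this measure, Akr1b1 stood at 4137 and Nfat5 at 7450. These genes share libraries and depth, and the values are a description. Akr1b1 and Nfat5 moved in opposite directions, with r = -0.65 and rho = -0.59 (permutation within groups, adjusted p = 0.0027 and 0.0081 over 20 relations), and r was -0.55 without the 2 libraries farthest from the median of Nfat5. Akr1b1 and Hspa4l had r = -0.53 (adjusted p = 0.049, permutation within groups) and rho = -0.36 (adjusted p = 0.19), and r was -0.39 without the 2 libraries farthest from the median of Hspa4l.

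Genes closest to Slc6a6 in those deviations were Kifc3 (r = 0.75), a kinesin motor, Klhdc8a (r = 0.75), Susd5 (r = 0.74), Sh2b3 (r = 0.73), the adaptor LNK that restrains cytokine signalling, and Hspb7 (r = 0.72), a small heat shock protein of muscle. By Spearman rho Hspb7 ranked 2, Kifc3 7, Susd5 8, Sh2b3 19 and Klhdc8a 27, so the order depends on the measure. The most opposite gene, Mcc, had r = -0.82. The ranking took a higher floor on the mean value than the tests and left out genes with only a locus or clone name. These 5 genes were ranked within groups and without regard to diet, and most also rose on high salt. Of all tested genes 8.12%, 10.7% and 4.44% were called as higher on high salt in S2Ba, S2Bb and SS. The part of clock or other differences between libraries in this likeness was not tested. Susd5 averaged 841.4 ± 170 on high salt and 370.4 ± 81.7 on normal salt in S2Ba (SD, limma log2 difference 1.19, adjusted p = 1.26e-05), with differences of 1.34 in S2Bb (adjusted p = 2.61e-07) and 0.85 in SS (adjusted p = 0.00185). Kifc3, Klhdc8a and Hspb7 passed in all 3 strains too, and Sh2b3 in S2Ba (0.44, adjusted p = 0.00958) and S2Bb (0.60, adjusted p = 0.000176), whereas in SS its difference was 0.17 (adjusted p = 0.363).

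Slc5a3 lies inside the span of Mrps6, a mitochondrial ribosomal protein gene, in RefSeq. Mrps6 was looked up after the files were read and is no substitute for Slc5a3. It averaged 31.8 ± 4.73 on high salt and 31.88 ± 4.75 on normal salt in S2Ba, 27.65 ± 4.04 and 25.84 ± 4.29 in S2Bb, and 28.22 ± 3.65 and 32.68 ± 7.22 in SS. None of these differences passed in limma (adjusted p = 0.987, 0.626 and 0.419).

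Around these genes, 7 lists of related genes were followed, with 82 tested genes in all. The lists were chosen with earlier results of these data known. Their salt p-values and shares, here and below, are therefore a description and not an independent test. On high salt 10 rose and 3 fell in S2Ba (15.9% called), 11 rose and 15 fell in S2Bb (31.7%), and 3 rose and 2 fell in SS (6.1%), beside 15.2%, 22.1% and 8.38% of all tested genes. The same shares of all genes belong beside the count of each single list below. The median log2 difference over the 82 genes was -0.02 in S2Ba, -0.11 in S2Bb and -0.08 in SS, against -0.01, -0.00 and -0.02 over all genes. No member of these lists was called in either strain comparison on normal salt or in S2Bb against SS on high salt, although 10, 12 and 5 had an unadjusted p under 0.05 (S2Ba and S2Bb on normal salt, S2Bb on high salt). The 5 calls in SS were 12 without SS normal salt replicate 3, 8 without S2Bb high salt replicate 1 and 3 without SS high salt replicate 5 or 6, and the 13 in S2Ba were 8 without S2Ba high salt replicate 6.

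Of 12 tested genes that move or make other osmolytes, 2 rose and 2 fell in S2Ba, 2 rose and 4 fell in S2Bb, and 1 rose and 1 fell in SS. Slc2a13, a proton-coupled myo-inositol transporter, rose in all 3 strains. Its values were 103.9 ± 6.71 on high salt and 65.75 ± 6.47 on normal salt in S2Ba (log2 0.66, adjusted p = 2.36e-05 in limma), 93.66 ± 22.5 and 61.18 ± 3.37 in S2Bb (0.58, adjusted p = 1.64e-05), and 91.34 ± 0.755 and 72.04 ± 2.48 in SS (0.34, adjusted p = 0.0196). Impa1, which frees inositol from its phosphate, rose by 0.28 in S2Ba (adjusted p = 0.0249) and by 0.23 in S2Bb (adjusted p = 0.0429). The S2Ba call of Impa1 was lost without high salt replicate 4 or 6 or normal salt replicate 1 or 4 (adjusted p up to 0.0799). With only the S2Ba groups in the fit it was lost too (adjusted p = 0.118 in limma).

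Other enzymes of the same routes fell. Isyna1, which makes inositol phosphate from glucose 6-phosphate, fell to 18.22 ± 2.72 on high salt, against 25.25 ± 1.57 on normal salt, in S2Bb (log2 -0.47, adjusted p = 0.00194 in limma) and to 16.37 ± 2.48, against 22.01 ± 3.57, in SS (-0.41, adjusted p = 0.0242), where the call was lost without high salt replicate 2, 4, 5 or 6 or normal salt replicate 6 (adjusted p up to 0.079). The SS call of Isyna1 was also lost with clock components (adjusted p = 0.197) and with only the SS groups in the fit (adjusted p = 0.0653). Sord, sorbitol dehydrogenase, which breaks down the product of aldose reductase, fell to 22.66 ± 2.15 on high salt, against 32.33 ± 3.46 on normal salt, in S2Ba (-0.50, adjusted p = 0.000948) and to 30.94 ± 4.98, against 40.72 ± 3.38, in S2Bb (-0.40, adjusted p = 0.00276). In SS Sord stood at 35.35 ± 5.46 on high salt and 35.55 ± 2.76 on normal salt, and on high salt it was lower in S2Ba than in SS (-0.62, adjusted p = 0.00181, where 1.73% of all genes were called). With clock components as covariates that strain call of Sord was lost (-0.40, adjusted p = 0.0999 in limma). The glycine transporter Slc6a9 fell in S2Ba and S2Bb and Impa2 in S2Bb, and these 2 are named after their values were seen. Of 3 tested genes that make or conjugate taurine none was called in a salt comparison, none had an unadjusted p under 0.05, and 1 was called in SS when only the SS groups entered the fit.

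Of 7 tested NFAT5 targets of other kinds 4 rose in S2Ba, 3 in S2Bb and 0 in SS, where 3 had an unadjusted p under 0.05, none was called by edgeR or DESeq2, and 3 were called with only the SS groups in the fit. The median log2 difference of the 7 was 0.70 in S2Ba, 0.51 in S2Bb and 0.46 in SS, and no difference between strains in the salt response was called. Aqp1, the water channel, stood at 2354 ± 635 on high salt and 1165 ± 96.4 on normal salt in S2Ba (log2 0.98, adjusted p = 0.000656 in limma) and at 1718 ± 784 and 1098 ± 243 in S2Bb (0.57, adjusted p = 0.0198). S100a4, a calcium-binding protein of motile cells, stood at 237.9 ± 78.3 and 121.5 ± 16.8 in S2Ba (0.92, adjusted p = 0.000212) and at 164.8 ± 37.8 and 113.4 ± 10.2 in S2Bb (0.51, adjusted p = 0.0125). Sgk1, the serum- and glucocorticoid-regulated kinase, rose by 0.70 in S2Ba (adjusted p = 0.0105) and by 0.75 in S2Bb (adjusted p = 0.00251). The remaining gene that rose in S2Ba, Acan, is named after its values were seen.

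On high salt Aqp1 and S100a4 were also higher in S2Ba than in SS, by 0.86 (adjusted p = 0.0185) and 0.79 (adjusted p = 0.0117). In SS Aqp1 averaged 1263 ± 167 on high salt and 899.6 ± 134 on normal salt, and S100a4 133 ± 16.6 and 97.7 ± 19.9. With clock components as covariates the S2Bb calls of Aqp1 (adjusted p = 0.355), S100a4 (adjusted p = 0.406) and Sgk1 (adjusted p = 0.0541) were lost, and with the heat shock level as a covariate those of Aqp1 (adjusted p = 0.0904) and S100a4 (adjusted p = 0.102). Without S2Bb high salt replicate 1 the S2Bb differences were 0.37 for Aqp1 (adjusted p = 0.0855) and 0.40 for S100a4 (adjusted p = 0.0521). With only the S2Bb groups in the fit the S2Bb call of Aqp1 was lost as well (adjusted p = 0.0732 in limma). The S2Ba against SS calls were lost with clock components (adjusted p = 0.219 for Aqp1 and 0.066 for S100a4), for Aqp1 also without S2Ba high salt replicate 3 or 4 or SS high salt replicate 4 or 6 (adjusted p up to 0.0766), and for S100a4 without S2Ba high salt replicate 4 (adjusted p = 0.0557).

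Of 13 tested genes that regulate NFAT5, 1 rose in S2Ba, 3 rose and 1 fell in S2Bb, and 1 rose and 1 fell in SS. Cdk5, a kinase, rose in all 3, by 0.31 in S2Ba (adjusted p = 0.0408 in limma), 0.27 in S2Bb (adjusted p = 0.0439) and 0.42 in SS (adjusted p = 0.0127). Mapk14, the p38 kinase that responds to hypertonicity, fell to 61.31 ± 5.46 on high salt in S2Bb, against 77.33 ± 4.94 on normal salt (-0.34, adjusted p = 0.00092), and the kinase Fyn fell by 0.36 on the log2 scale in SS (adjusted p = 0.00957). Atm and Parp1, which act in DNA damage signalling, rose in S2Bb by 0.35 (adjusted p = 0.00124) and 0.28 (adjusted p = 0.00153). With clock components as covariates none of the S2Bb and SS calls of this list held, nor did the S2Ba call of Cdk5 (adjusted p = 0.129). That call was also lost without a filter on low values (adjusted p = 0.0685), with only the S2Ba groups in the fit (adjusted p = 0.108), and without high salt replicate 1, 3, 4 or 6 or normal salt replicate 2, 3 or 4 (adjusted p up to 0.124).

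The list of 16 tested heat shock genes, relatives and partners of Hspa4l, had 9 that fell and 1 that rose on high salt in S2Bb, 1 that rose in S2Ba and none called in SS, where 7 had an unadjusted p under 0.05, edgeR called 0 and DESeq2 1. The median log2 difference of the 16 was -0.09 in S2Ba, -0.70 in S2Bb and -0.52 in SS, and for the difference in salt response between S2Bb and SS 0 of 16 were called (1 with an unadjusted p under 0.05), so a strain difference was not detected. Hspb1, a small heat shock protein of smooth muscle, fell to 115.1 ± 42.1 on high salt in S2Bb, against 897.4 ± 643 on normal salt (log2 -2.70, adjusted p = 0.000187 in limma). Hspa2 fell to 19.73 ± 4.4, against 33.2 ± 2.14 (-0.76, adjusted p = 0.000579), and Hspa4, the closest relative of Hspa4l in the list, to 277.3 ± 29.5, against 353.4 ± 22.6 (-0.35, adjusted p = 0.00215). Hspa5, the chaperone of the endoplasmic reticulum, was the gene that rose, by 0.56 in S2Ba (adjusted p = 0.0249) and by 0.48 in S2Bb (adjusted p = 0.0305), and its S2Ba call was lost without high salt replicate 1 or 6 or normal salt replicate 1 or 2 (adjusted p up to 0.11). Without a filter on low values the S2Ba call of Hspa5 was lost too (adjusted p = 0.0531). With clock components as covariates 0 of the 16 were called in S2Bb, and Hspb1 then had a difference of -1.70 (adjusted p = 0.084).

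The summed value of that list differed between libraries of the same group, mostly on normal salt. It ran from 2461 to 4881 (median 2735) in S2Ba on high salt and from 2166 to 7345 (2410) on normal salt, from 2026 to 4246 (2499) and from 2589 to 8814 (6096) in S2Bb, and from 2052 to 3253 (2893) and from 2703 to 6211 (3850) in SS. Hspa4l followed it within groups, with r = 0.84 and rho = 0.82 (permutation within groups, adjusted p = 0.0002 for both over 20 relations, from the smallest p these permutations can give, 1e-05), and r was 0.83 without the 2 farthest libraries. Slc6a6 did not pass in the same relation (r = -0.23, adjusted p = 0.45), nor did Akr1b1 (r = -0.47, adjusted p = 0.063), Nfat5 (r = 0.43, adjusted p = 0.069) or Slc38a2 (r = -0.04, adjusted p = 0.84).

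Heat shock level was therefore added as a covariate, an alternative chosen after seeing the data. The Slc6a6 salt difference was then 1.47 in S2Ba, 1.47 in S2Bb and 1.11 in SS, and its S2Bb against SS difference on normal salt -0.56 (adjusted p = 0.045 in limma). Hspa4l changed most: its salt difference in S2Bb became 0.64 in place of -0.03, and on normal salt it was lower in S2Bb than in SS by 0.55 (log2 difference -0.55, adjusted p = 0.0459), where the fit without the covariate gave -0.22 (adjusted p = 0.763). The heat shock sum itself had a median of 6096 in S2Bb and 3850 in SS on normal salt. The covariate was added after Hspa4l had been seen to follow it, so this adjusted p is a description and not an independent test.

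Of 17 tested genes of the amino acid response, which share the ATF4 route with Slc38a2, 1 rose in S2Ba, 2 in S2Bb and 1 in SS. Over all tested genes 15.2%, 22.1% and 8.38% were called. Shmt2, a mitochondrial enzyme of serine breakdown, rose by 0.36 in S2Bb (adjusted p = 0.0119 in limma) and by 0.38 in SS (adjusted p = 0.031), and Ddit4 rose by 0.88 in S2Bb (adjusted p = 0.0347). Chac1, which degrades glutathione, rose in S2Ba at very low values (adjusted p = 0.0346), with 1.351 ± 0.772 under high salt and 0.4209 ± 0.617 under normal salt. Single libraries decided these calls: of the 34 fits that left out 1 library, 5 lost that of Shmt2 in SS, 7 that of Ddit4 and 7 that of Chac1. Without a filter on low values all of these were lost too (adjusted p = 0.0517, 0.0726 and 0.0676 in limma). Shmt2 in SS was also lost with clock components (adjusted p = 0.0663) and Ddit4 with the heat shock covariate (adjusted p = 0.0659). Chac1 was lost with only the S2Ba groups in the fit (adjusted p = 0.118).

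Of 14 tested genes of cell volume control, 1 rose and 1 fell in S2Ba, 1 fell in S2Bb and none was called in SS, where 4 had an unadjusted p under 0.05 and edgeR and DESeq2 called 0. Over all tested genes 15.2% were called in S2Ba, 22.1% in S2Bb and 8.38% in SS. Slc12a2, the NKCC1 cotransporter that loads cells with sodium, potassium and chloride, rose to 60 ± 4.13 on high salt in S2Ba, against 41.36 ± 4.47 on normal salt (log2 0.54, adjusted p = 0.000386 in limma), and its values were 50.94 ± 10.4 and 42.88 ± 2.78 in S2Bb and 52.18 ± 2.13 and 45.46 ± 5.69 in SS. Lrrc8d, a subunit of the volume-regulated anion channel that lets taurine out of swollen cells, fell in S2Ba to 14.1 ± 2, against 18.84 ± 2.79 (-0.40, adjusted p = 0.0242), and in S2Bb to 13.55 ± 2.66, against 17.15 ± 2.56 (-0.34, adjusted p = 0.0349). Leaving out 1 library lost the Lrrc8d call in 3 of 34 fits in S2Ba and in 6 in S2Bb. With only the groups of the strain in the fit both calls were lost (adjusted p = 0.0729 in S2Ba and 0.0753 in S2Bb, limma). The S2Bb call was also lost with clock components (adjusted p = 0.285), the heat shock covariate (adjusted p = 0.119) and no filter on low values (adjusted p = 0.0633).

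**Figure D5:**
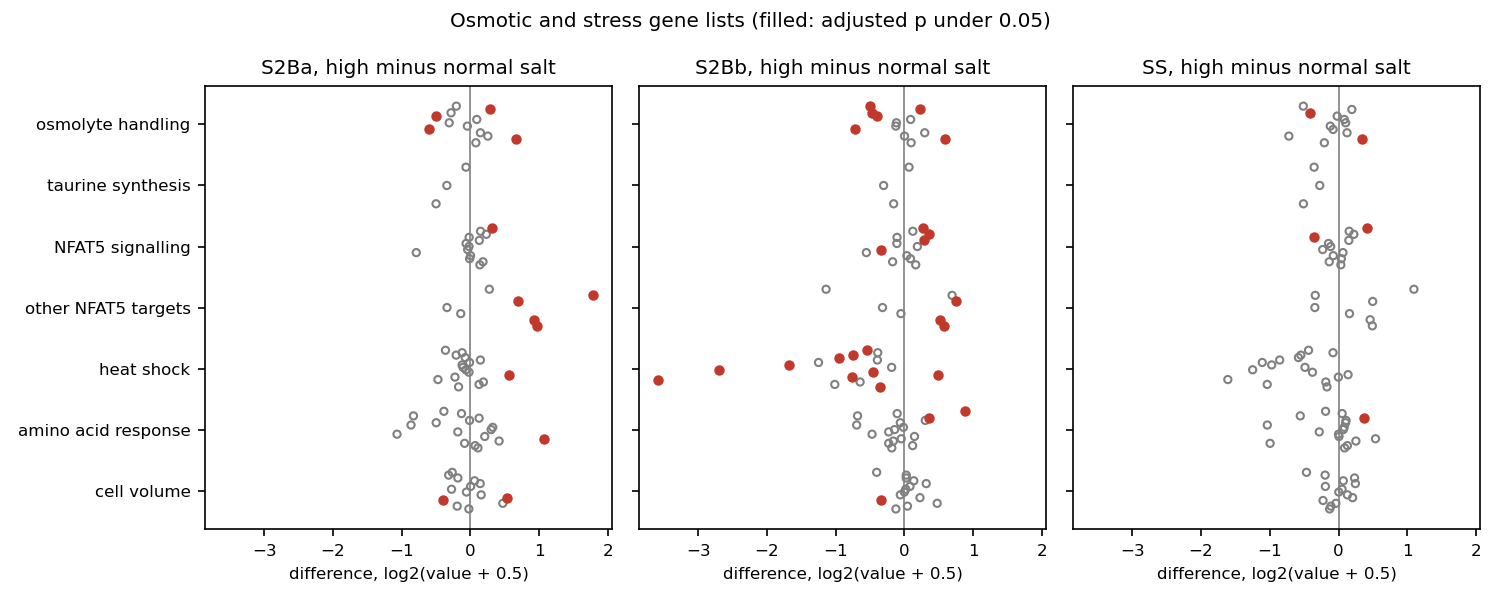
High minus normal salt differences (log2(value + 0.5) scale) of the tested genes of each list in each strain, 1 point per gene, filled where the adjusted p in limma was under 0.05. In S2Bb 9 heat shock genes fell, with Hspb1 at -2.70, and Slc2a13 (0.66, 0.58 and 0.34 in S2Ba, S2Bb and SS) is filled in every panel.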

How the data were processed

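The authors deposited a signal value for every gene in every library. Tools named in the submitters' processing notes include the aligner STAR (2.3.1) and edgeR (3.6.8). Build, annotation, counter and strand setting: not given in the sources used here. The authors' values were whole multiples of the value of 1 read (0.0659 to 0.12 by library): with a tolerance of 0.01 reads, 100% came out whole, so each value is a count of reads over the size factor of its library. Rows without a symbol took at most 0.0195% of reads.

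The members and lists were chosen with earlier results of these data known. The main test was limma 3.58.1 (R 4.3.3, intensity trend) on log2(value + 0.5) in 13475 genes, with 1 mean for each of 6 groups, 9 contrasts, 2-sided p, Benjamini-Hochberg adjustment and a threshold of 0.05. This scale understates changes of low genes. Named are all members, up to 3 called genes per list and salt contrast and 2 in other contrasts, and the 5 genes most like Slc6a6. Impa1, Cdk5 and Hspa5 met this rule in S2Ba and not in S2Bb. Their S2Bb values were added after they were seen, and how these calls depend on single libraries is not given here. Alternatives included edgeR 4.0.16 and DESeq2 1.42.0 on the recovered read counts, other scalings, filters and pseudocounts, clock components and a heat shock covariate. Depth limits precision for Slc6a12 and Chac1.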

Additional observations from a re-analysis of the deposited data

Results flagged for a closer look

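Of 36 groups of values tested for a library far from the rest, 3 were flagged, where chance alone flags about 1 in 20 groups. Akr1b1 stood at 156.7 in SS normal salt replicate 3, with a gap to the next library of 0.747 of the whole range (critical value 0.625 for 6 libraries). Slc38a2 stood at 677.5 in S2Bb high salt replicate 1, with a gap of 0.825 of the range. Hspa4l stood at 16.94 in S2Bb normal salt replicate 2, with a gap of 0.659 of the range, and that library also had the highest summed heat shock value of all libraries, 8814.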

How the results depend on the processing

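No paired analysis was possible because the labels give no replicate numbers shared between groups. The Slc6a6 salt difference kept its direction under all 11 alternatives and in all 34 fits without 1 library: it ran from 1.387 to 1.491 over the alternatives and from 1.317 to 1.572 over the left-out libraries in S2Ba, from 1.414 to 1.604 and from 1.525 to 1.624 in S2Bb, and from 0.944 to 1.204 and from 1.083 to 1.237 in SS. The Slc6a6 difference between S2Bb and SS on normal salt was -0.614 without a filter and -0.585 with clock components, where the call was lost, and ran from -0.705 to -0.55 without 1 library. In that comparison the count of called members was 0 without a filter, 0 with clock components, 2 with the heat shock covariate and 0 to 1 without 1 library; for S2Ba against SS on normal salt it was 1 in DESeq2 and 0 to 1 without 1 library. Reversed, with no call in any fit, were Akr1b1 in S2Ba against SS on high salt (-0.027 with clock components) and Hspa4l in that comparison (0.024 in edgeR and 0.035 in DESeq2). Without 1 library Slc6a6 (-0.019 to 0.183) and Hspa4l (-0.232 to 0.061) in S2Ba against SS on high salt, Slc38a2 in S2Ba against SS on normal salt (-0.111 to 0.023) and in the S2Bb interaction (-0.16 to 0.013) crossed 0, as did the salt differences of Nfat5 in S2Ba (-0.102 to 0.05), Slc38a2 in S2Bb (-0.03 to 0.142) and Hspa4l in S2Bb (-0.199 to 0.209). With clock components Nfat5 in S2Ba was 0.035, against -0.04. The S2Bb salt difference of Hspa4l was 0.64 with the heat shock covariate. The causes were not tested.

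List genes called for salt in SS numbered 9 with only the SS groups, 2 with clock components and 11 in DESeq2, against 5, and 3 to 12 without 1 library; in S2Bb they numbered 7 with clock components, against 26, and in S2Ba 8 to 17 without 1 library. Without 1 library, calls by list ran in S2Ba from 2 to 4 for other osmolytes, 0 to 3 for NFAT5 regulators, 0 to 1 for heat shock, 0 to 3 for the amino acid response and 1 to 3 for cell volume; in S2Bb from 1 to 3 for other NFAT5 targets, 1 to 2 for the amino acid response and 0 to 3 for cell volume; and in SS from 1 to 4 for other osmolytes, 0 to 2 for other NFAT5 targets, 0 to 2 for heat shock and 0 to 3 for the amino acid response. Of 34 named list results 11 were called under every alternative. All 1529 recomputed values of these list results kept their direction, and 90 were no longer called. Over all genes, the counts ran over the alternatives from 1113 to 2527 for salt in S2Ba, 1408 to 3314 in S2Bb and 500 to 1395 in SS. With TMM scaling the SS count split into 708 higher and 420 lower, against 598 and 531. The S2Bb interaction called 0 to 124 genes over the alternatives and 0 to 102 without 1 library, against 23. The S2Ba interaction called 0 genes in limma, 1 in edgeR and 10 in DESeq2, with 1308 under an unadjusted p of 0.05.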
